A study of Mus musculus with 6 samples.

Results

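The genes described here encode the proteins of the cytosolic ribosome. They were taken as every row of the gene count tables whose identifier maps to a protein-coding mouse gene with a symbol beginning Rpl or Rps followed by a digit, with the Rps6k kinases left out. The rule gave 88 of 56748 genes. Of these, 43 encode core proteins of the large (60S) subunit and 30 encode core proteins of the small (40S) subunit. The other 15 are paralogues, pseudogene-like copies annotated as protein-coding, and Rps19bp1, whose product binds Rps19 and is not itself a ribosomal protein.

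The series compared whole tibia of female mice at 12 weeks of age, 3 libraries from Col1a1+/- animals and 3 from wild-type (WT) animals. Col1a1 encodes the alpha-1 chain of type I collagen, the main protein of bone matrix, and the study concerns osteogenesis imperfecta type I, the mild form of brittle bone disease. Both genotypes were untreated as far as the labels say, the marrow of every bone was flushed out, and RNA was selected by poly-A tail. The sources used here name neither the strain nor the kind of Col1a1 allele, and do not say that each library came from its own animal. The p-values therefore reflect the spread from library to library, which may be technical.

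Ribosomal proteins are made in matched amounts because each ribosome holds about one copy of each, and the excess of any one is degraded. Their mRNAs are short and abundant, and most begin with a run of pyrimidines (a terminal oligopyrimidine, or TOP, sequence) through which the mTORC1 kinase controls their translation. A few ribosomal proteins have paralogues made in particular tissues. The best known of them is Rpl3l, which replaces Rpl3 in the ribosomes of skeletal muscle and heart.

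The libraries held 26830644 to 32379684 counts. Levels are given as CPM, counts scaled to a common library size. Col1a1 itself was at 61080, 52820 and 59530 CPM in Col1a1+/- libraries 1 to 3 and at 36770, 61280 and 54740 CPM in WT replicates 1 to 3 (log2 fold change 0.18, edgeR adjusted p = 0.78). Its level therefore gave no check of the genotype labels, and a genotype below means the label. The 12 osteoblast markers, all of them detected, took 7.90% to 8.88% of counts in Col1a1+/- and 3.71% to 5.19% in WT, and 8 of the 12 were called higher. The 24 skeletal muscle markers took 1.84% to 3.76% in Col1a1+/- and 5.81% to 7.37% in WT, and 9 were called lower. Without Col1a1+/- replicate 1 or without WT replicate 3, edgeR called 0 of all genes. WT replicate 1 stood apart in its neutrophil markers, at 0.654% of counts for 14 genes, against 0.109% to 0.182% in the other 5 libraries. In bulk tissue, fewer cells of a type and less RNA per cell cannot be told apart.

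Ribosomal protein mRNAs together took a larger share of the counts in every Col1a1+/- library than in any WT library. The 88 genes held 2.71%, 2.69% and 2.68% of all counts in Col1a1+/- replicates 1 to 3, and 2.20%, 2.40% and 2.40% in WT replicates 1 to 3. The groups did not overlap, the 3 Col1a1+/- libraries lay close together, and WT replicate 1 was the lowest. The means were 2.69% ± 0.0159 (SD, n = 3) in Col1a1+/- and 2.33% ± 0.117 (SD, n = 3) in WT, a ratio of 1.15. With the counts of the 24 muscle markers left out of each total, the shares were 2.73% to 2.79% in Col1a1+/- and 2.33% to 2.59% in WT, still without overlap. The 7 ribosomal proteins whose symbols fall outside the rule, such as the stalk protein Rplp0 and the 40S protein Rpsa, held another 0.414% ± 0.00811 in Col1a1+/- and 0.362% ± 0.0194 in WT (SD, n = 3).

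The ratio of counts between the subunits differed slightly between the genotypes. The 43 genes of the 60S subunit held 1.46%, 1.43% and 1.46% of counts in Col1a1+/- replicates 1 to 3 and 1.16%, 1.27% and 1.27% in WT replicates 1 to 3. The 30 genes of the 40S subunit held 1.21%, 1.19% and 1.18% in Col1a1+/- and 0.984%, 1.08% and 1.06% in WT. The ratio of 60S to 40S counts is free of library scaling. It was 1.21, 1.20 and 1.24 in the Col1a1+/- libraries and 1.18, 1.18 and 1.19 in the WT libraries, so the groups again did not overlap, with means of 1.21 ± 0.0185 and 1.18 ± 0.00735 (SD, n = 3), a difference of 0.029. A single 40S gene, Rps2, took 2.92% to 3.26% of core counts in Col1a1+/- and 3.87% to 3.98% in WT. The part of Rps2 in the ratio was not tested, so the ratio does not show a difference of the subunits as a whole.

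**Figure D1:**
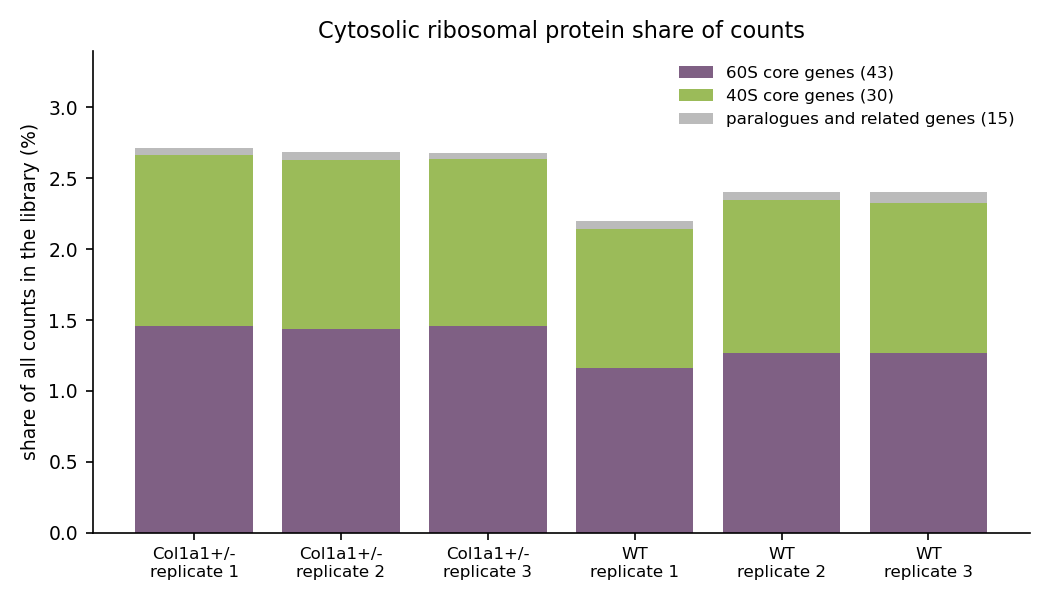
Share of all counts (%, y axis) held by the 43 core 60S genes, the 30 core 40S genes and the 15 paralogues and related genes, stacked, in each of the 6 libraries (x axis). The Col1a1+/- libraries reach 2.68% to 2.71% and the WT libraries 2.20% to 2.40%.

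Per gene, after TMM scaling (a trimmed mean of log ratios between libraries), no gene passed the threshold by edgeR, and the differences of the core genes were small. Of the 88 genes, 85 passed the filter on low counts, among them all 73 core genes. Rpl10l, the testis paralogue of Rpl10, and Rpl36-ps4 had no counts in any library, and Rpl9-ps1 had 1 count in all. By edgeR's quasi-likelihood test 0 of the 85 genes were called at an adjusted p under 0.05, where 4.34% of all 18514 tested genes were called. At an unadjusted p under 0.05 the test gave 4 genes (Rpl3l, Rpl3, Rpl36al and Rpl13a), against 22.8% of all genes. DESeq2 called 2 of the 85 (Rpl3 higher and Rpl3l lower) against 12.1% of all genes, and limma-voom called Rpl3l alone, lower, against 5.17%.

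The core genes were shifted together by a small amount. Their median log2 fold change, Col1a1+/- over WT, was 0.13, with 69 of 73 above 0 and quartiles of 0.08 and 0.17, and the median over all tested genes was -0.01, with quartiles of -0.29 and 0.22. The 60S and 40S genes had medians of 0.13 each, with 41 of 43 and 28 of 30 above 0. The log2 fold changes of the core genes spread with an SD of 0.09, less than the median SE of one gene (0.15), while all tested genes spread with an SD of 0.54. Over all 85 tested genes the median was 0.12, and it was -0.47 with libraries scaled on osteocyte genes, a scaling under which the median of all genes moved to -0.64.

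In the TMM scaling this shift of the fold changes rested on WT replicate 1. That library was the lowest of the 6 for 70 of the 73 core genes. Without it the median of the core genes was 0.02, with 44 above 0 and 29 below, beside a median of 0.04 over all genes. The difference in share of counts remained without that library, at 0.29 percentage points against 0.36 with all libraries. Shares carry no TMM scaling, whose factors with all 6 libraries were 1.03, 1 and 1.06 in Col1a1+/- and 0.928 and 0.892 in WT replicates 2 and 3. In the TMM scaling without WT replicate 1, 42 of the 85 tested genes lay above the median of all genes. The share difference that remained is therefore not shown to be particular to these genes. The 3 Col1a1+/- libraries were all above the 3 WT libraries for 15 of the 85 tested genes, where 14.0% of all genes showed that order, and all below for 2 (Rpl3l and Rps19bp1), where 14.5% of all genes did. The first share is close to that of all genes. Of the 15 genes, 13 are core, among them Rpl3, Rpl10, Rpl13a and Rpl41 of the large subunit and Rps7 and Rps12 of the small. The others are Rpl36al and Rpl7l1.

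**Figure D2:**
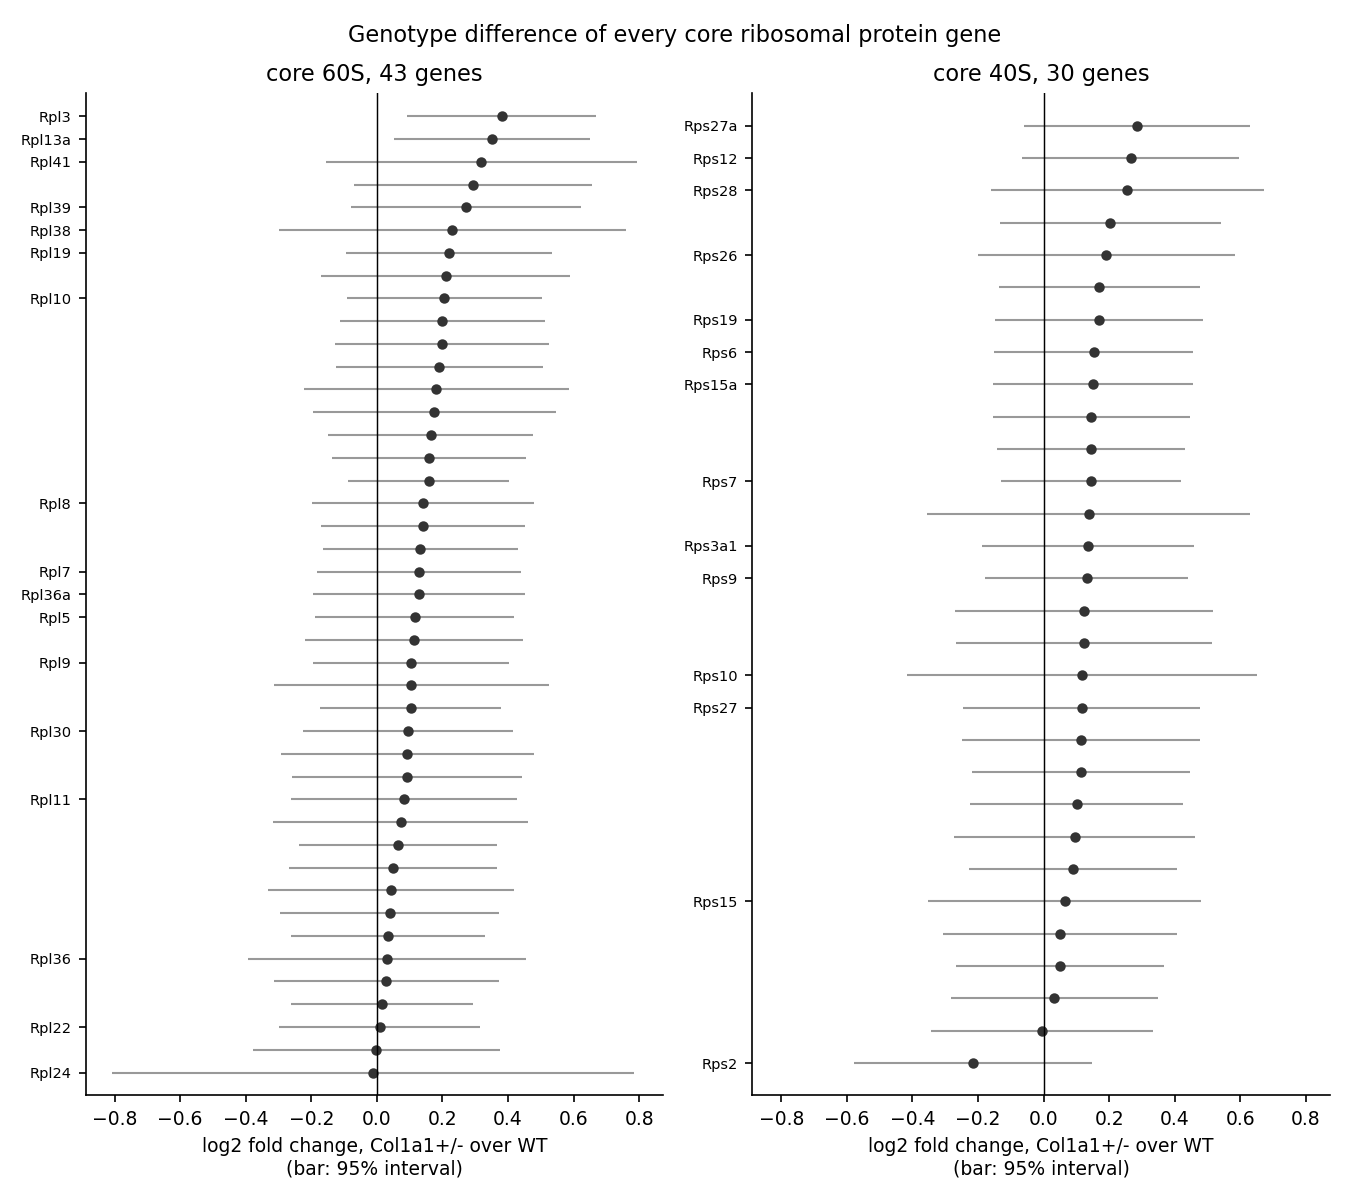
Log2 fold change, Col1a1+/- over WT (x axis), of each of the 43 core 60S genes (left) and 30 core 40S genes (right), one gene per row in order of the estimate, with the 95% interval as a bar and the genes named by rule labelled. 69 of the 73 points lie above 0 in this TMM scaling, from -0.21 for Rps2 to 0.38 for Rpl3, and the intervals of 2 genes, Rpl3 and Rpl13a, exclude 0.

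Within the WT group, WT replicate 1 was lower for nearly every core gene, by amounts that varied with the gene. Against the mean of the other WT libraries on the log2 scale, 72 of the 73 core genes were lower in it, with a median difference of -0.42, while the median over all genes was -0.07. Rpl3 was the exception. The difference was larger for genes with short coding sequences: its median was -0.48 for the 45 core genes with under 500 bp of coding sequence and -0.32 for the 28 longer ones. Across the 73 genes, which share their libraries, Spearman's rho between this difference and coding length was 0.76. It was -0.52 and -0.63 for WT replicates 2 and 3, which are each measured against a pair that includes replicate 1. It was 0.32, -0.45 and 0.10 for the Col1a1+/- libraries.

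The same order held over all genes, where the median in WT replicate 1 was -0.33 for 1333 genes with under 500 bp of coding sequence, -0.11 for 6783 genes from 500 bp to below 1500 bp and 0.01 for 6539 genes of 1500 bp or more. This library also had the most counts of the 12 cycling-cell markers, at 0.0944% against 0.0469% to 0.0708% in the others. The part of these differences, and of the neutrophil markers, in the low ribosomal protein values was not tested. Between genotypes the fold change showed little relation to coding length across the 73 genes (rho -0.09, and 0.23 without WT replicate 1).

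**Figure D3:**
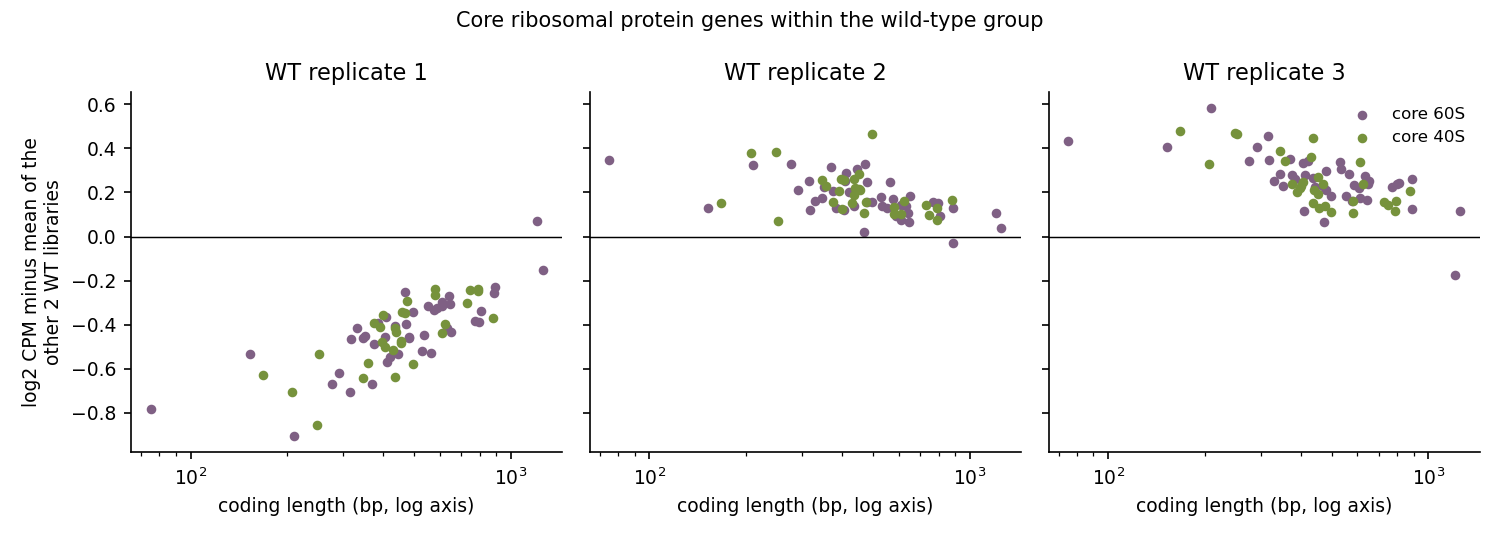
Log2 CPM of each of the 73 core genes in WT replicates 1, 2 and 3 minus the mean of the other WT libraries (y axis), against coding length in bp (x axis, log scale), with 60S and 40S genes in different colours. In replicate 1 all but 1 of the points lie below 0, and genes under 500 bp lie lower in the median (-0.48) than longer ones (-0.32).

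Among the 85 tested genes, Rpl3l and Rpl3 had the smallest p-values, and they moved in opposite directions. Rpl3l (ENSMUSG00000002500, GRCm39 chromosome 17, 24946794 to 24955117, plus strand) encodes the striated-muscle form of the protein that Rpl3 (ENSMUSG00000060036, chromosome 15, 79961992 to 79976069, minus strand) encodes elsewhere, a protein that lies near the peptidyl transferase centre. Rpl3l was at 91.5, 145 and 62.3 CPM in Col1a1+/- replicates 1 to 3 and at 195, 279 and 381 CPM in WT replicates 1 to 3. Every Col1a1+/- library was below every WT library. The means were 99.5 ± 41.8 and 285 ± 93.4 CPM (SD, n = 3), and the log2 fold change was -1.52 ± 0.36 (SE) with a 95% interval from -2.37 to -0.67, which missed the threshold by edgeR (adjusted p = 0.0624). Without Col1a1+/- replicate 2, the Col1a1+/- library with the most muscle counts, Rpl3l was called, at -1.89 with adjusted p = 0.0206. Leaving out any of the other 5 libraries gave adjusted p from 0.0833 to 0.189.

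Rpl3 was at 617, 604 and 645 CPM in the Col1a1+/- libraries and at 493, 501 and 440 CPM in the WT libraries. Here every Col1a1+/- library was above every WT library, with means of 622 ± 20.7 and 478 ± 33.0 CPM (SD, n = 3). The log2 fold change was 0.38 ± 0.13 (SE), edgeR adjusted p = 0.118, and it was -0.25 with libraries scaled on osteocyte genes, still above the median of all genes in that scaling. DESeq2 called the gene (adjusted p = 0.0142). Between the pair, Rpl3l had 0.148, 0.240 and 0.0965 counts per count of Rpl3 in Col1a1+/- and 0.396, 0.558 and 0.867 in WT. This ratio needs no scaling of libraries. The groups did not overlap, and the exact two-sided permutation p was 0.1, the smallest that 3 libraries against 3 can give (0.233 adjusted over the 7 paralogue pairs compared).

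Rpl3l was set beside the muscle transcripts. Per 1000 counts of the 24 muscle markers it had 4.64, 3.86 and 3.58 counts in Col1a1+/- and 3.70, 4.37 and 4.62 in WT, so the groups overlapped (means 4.03 ± 0.549 and 4.23 ± 0.475, SD, n = 3, exact two-sided permutation p = 0.8). Of the 24 muscle markers, 22 were below WT in every Col1a1+/- library, with a median log2 fold change of -1.57, close to that of Rpl3l. The muscle share separated the genotypes completely, so muscle content and genotype cannot be told apart for Rpl3l. With a muscle score as a covariate, a fit that called 0 of all genes, the estimate for Rpl3l was 0.21 (edgeR adjusted p = 0.876).

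Rpl3 was the core gene whose part of the ribosomal protein counts varied most among WT libraries. It made up 2.53%, 1.98% and 1.69% of core counts in WT replicates 1 to 3 and 2.39%, 2.31% and 2.59% in Col1a1+/- replicates 1 to 3. The highest WT value was 1.50 times the lowest, beside a median of 1.09 over the 71 core genes other than Rpl24 and Rps10, whose counts were very low. Rpl4, the core gene of longest coding sequence (1257 bp, beside 1209 bp for Rpl3), was also highest in WT replicate 1. It made up 3.34%, 2.80% and 2.82% of core counts in WT replicates 1 to 3. The part of coding length in the Rpl3 values was not tested. Within each genotype the libraries ranked by the Rpl3 share in the reverse of their order by the Rpl3l level. The shares of the genotypes overlapped (exact two-sided permutation p = 0.3). Rpl3 and Rpl3l together made up 2.75%, 2.86% and 2.84% of core counts in Col1a1+/- and 3.54%, 3.09% and 3.15% in WT, so the sum was lower in each Col1a1+/- library while the Rpl3 share was not.

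**Figure D4:**
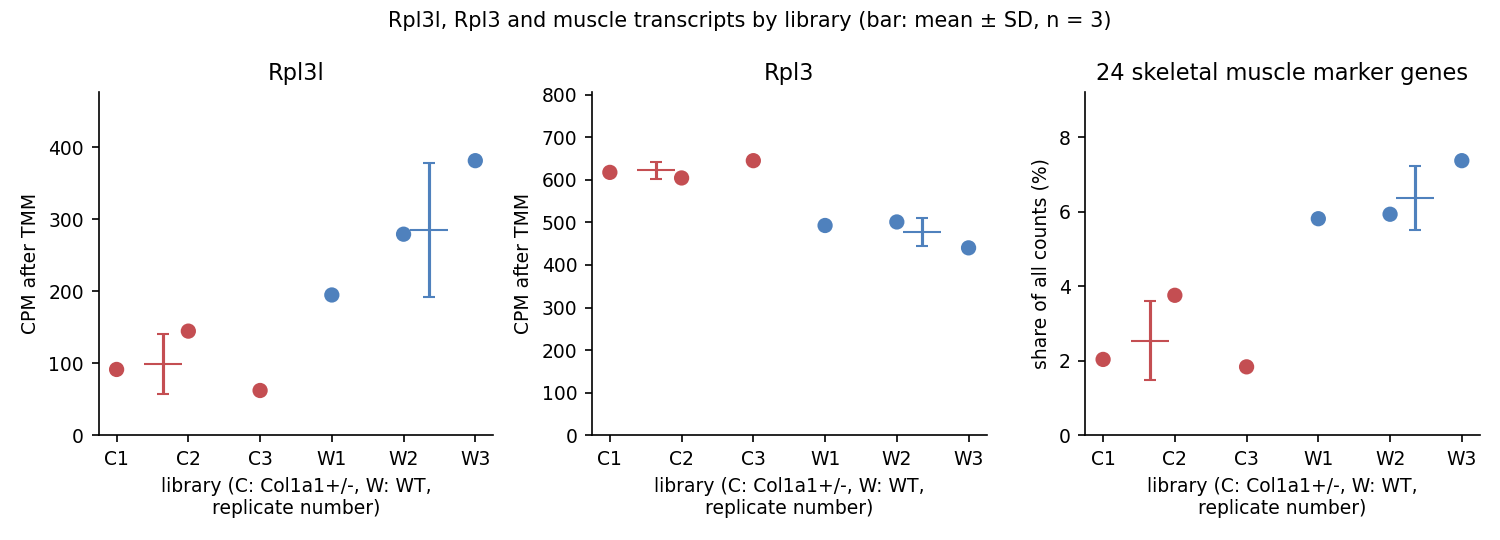
Level of Rpl3l (left, CPM after TMM), level of Rpl3 (middle, CPM after TMM) and share of counts of 24 skeletal muscle markers (right, %) in the 3 Col1a1+/- libraries (C1 to C3) and 3 WT libraries (W1 to W3), with mean ± SD of each group. Rpl3l and the muscle share are lower in each Col1a1+/- library, and Rpl3 is higher (62.3 to 145 against 195 to 381 CPM for Rpl3l, 604 to 645 against 440 to 501 CPM for Rpl3).

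Rps2 had the lowest log2 fold change among the core genes. It encodes a protein at the mRNA entry channel of the 40S subunit (ENSMUSG00000044533, GRCm39 chromosome 17, 24937090 to 24940903, plus strand) and lies 5890 bp from Rpl3l, with 1 gene, Ndufb10, between them. Rps2 was at 810, 854 and 728 CPM in Col1a1+/- and at 774, 991 and 1009 CPM in WT, so the groups overlapped through WT replicate 1. The log2 fold change was -0.21 ± 0.16 (SE, edgeR adjusted p = 0.476). As a part of core counts the gene separated the groups, at 3.14%, 3.26% and 2.92% in Col1a1+/- and 3.98%, 3.92% and 3.87% in WT. In this share the WT libraries differed by 1.03 times. Altogether 8 core genes took a larger part of core counts in each Col1a1+/- library than in any WT library, among them Rpl13a, Rpl41 and Rps12. Of all tested genes 5.55% had that order relative to core counts. A smaller part was taken by 6 core genes, among them Rps2 and Rpl22, where 22.5% of all genes had that order. The core genes are part of this denominator and other genes are not, so the shares over all genes are not a like background for them.

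The proteins of the 5S ribonucleoprotein, Rpl5 and Rpl11, which bind and inhibit Mdm2 when ribosome assembly fails, did not separate the genotypes. Rpl5 was at 511, 483 and 517 CPM in Col1a1+/- and 416, 456 and 522 CPM in WT, with a log2 fold change of 0.12 ± 0.13 (SE, edgeR adjusted p = 0.666). Rpl11 was at 431, 420 and 391 CPM and at 315, 413 and 446 CPM, with 0.08 ± 0.15 (SE, adjusted p = 0.802). In both genes WT replicate 1 was the lowest library and WT replicate 3 the highest.

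Rps6, the substrate of the S6 kinases, was at 563, 549 and 500 CPM in Col1a1+/- and at 430, 504 and 515 CPM in WT (log2 fold change 0.15 ± 0.13, SE, edgeR adjusted p = 0.553). Rps19, the gene most often mutated in Diamond-Blackfan anaemia, an inherited failure of red cell production that can come with skeletal malformation, was at 277, 290 and 267 CPM against 202, 276 and 263 CPM (0.17 ± 0.14, SE, adjusted p = 0.524). Rps27a, made as a fusion with ubiquitin, was at 278, 279 and 214 CPM against 179, 220 and 234 CPM (0.29 ± 0.15, SE, adjusted p = 0.308). The groups overlapped in all 3 genes. Among 18 genes of Diamond-Blackfan anaemia, edgeR called 0 and none had an unadjusted p under 0.05, nor was any called by DESeq2 or limma-voom. Their median log2 fold change was 0.11, and -0.02 without WT replicate 1.

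Rpl38, Rpl24 and Rps7 are genes in which mouse mutants have patterning defects of the skeleton. Rpl38, whose loss in the mouse disturbs Hox mRNA translation and the axial skeleton, was at 124, 124 and 127 CPM in Col1a1+/- and at 67.3, 119 and 134 CPM in WT (log2 fold change 0.23 ± 0.23, SE, edgeR adjusted p = 0.609). The 3 Col1a1+/- libraries were nearly equal and lay between WT replicates 2 and 3, and WT replicate 1 lay far below the other 5. Rps7 was at 341, 358 and 357 CPM against 284, 337 and 334 CPM, without overlap (0.14 ± 0.12, SE, adjusted p = 0.535). Rpl24 was at 1.02 to 2.22 CPM in all libraries, and it shares 47.0% of its exon bases with another gene, over which reads were not counted.

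By position in the ribosome, the 10 proteins around the peptide exit tunnel had a median log2 fold change of 0.12, the 5 at the mRNA entry and decoding site 0.06 and the 5 at the mRNA exit and platform 0.14. In each of these groups edgeR, DESeq2 and limma-voom called 0 genes, and 0 had an unadjusted p under 0.05 by edgeR. Rpl41, the shortest ribosomal protein, was at 699, 724 and 696 CPM in Col1a1+/- and 382, 645 and 672 CPM in WT (0.32 ± 0.21, SE, edgeR adjusted p = 0.412). Its groups did not overlap, and most of the difference came from WT replicate 1.

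The paralogues outside the core lists were mostly low. Rpl22l1, the paralogue of Rpl22, was at 42.1, 49.1 and 39.5 CPM in Col1a1+/- and 32.7, 39.7 and 40.4 CPM in WT (log2 fold change 0.21, edgeR adjusted p = 0.36). Its count per count of Rpl22 was 0.227, 0.258 and 0.237 in Col1a1+/- and 0.220, 0.210 and 0.201 in WT, without overlap (exact two-sided permutation p = 0.1, 0.233 adjusted over the 7 pairs). Rpl36al, a paralogue of Rpl36a, was at 2.54, 2.03 and 1.55 CPM against 0.836, 1.19 and 1.28 CPM, also without overlap (0.89 ± 0.33, SE, adjusted p = 0.15). Its count per count of Rpl36a was 0.0166, 0.0123 and 0.00999 in Col1a1+/- and 0.00726, 0.00792 and 0.00764 in WT. These ratios did not overlap either (exact two-sided permutation p = 0.1, 0.233 adjusted over the 7 pairs). Rpl36al had only 27 to 85 counts per library. Rpl36al shares 24.5% of its exon bases with another gene, so its counts are a part of its reads. Rpl39l, the testis-enriched paralogue of Rpl39, was at 12.8, 15.4 and 8.43 CPM against 6.32, 10.2 and 9.48 CPM (0.50 ± 0.26, SE, adjusted p = 0.294). Rps27l, a p53-induced paralogue of Rps27, was at 49.3, 64.2 and 49.1 CPM against 43.4, 65.3 and 63.9 CPM (-0.08 ± 0.18, SE, adjusted p = 0.83). For Rpl39l, Rps27l, Rpl7l1 and Rps27rt the ratio to the core partner overlapped between genotypes, with exact two-sided permutation p from 0.3 to 0.9.

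Some gene copies varied by library. Rpl10-ps3 was at 1.32, 1.54 and 1.62 CPM in Col1a1+/- and at 1.27, 1.52 and 11.7 CPM in WT, so 1 library, WT replicate 3, held 339 of its counts where each of the others held 41 to 46. The log2 fold change of -1.70 ± 0.88 (SE, edgeR adjusted p = 0.311) came from it, and without it the value was 0.10. Rps12-ps3 was at 111, 170 and 164 CPM in Col1a1+/- and at 81.5, 71.8 and 196 CPM in WT, with WT replicate 3 far above the other WT libraries (0.35 ± 0.40, SE, adjusted p = 0.671). Reads that fit several places were left out of the counts, so such copies show only the reads that fit 1 place, and how reads divide between a copy and its parent gene is uncertain. The 301 rows annotated as ribosomal protein pseudogenes held 3.84 to 4.34 counts per 100 counts of the 88 genes.

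Compared per length of coding sequence, the core genes lay within a narrow band. Over all 6 libraries the median level was 642 CPM per kb of coding length, with quartiles of 517 and 874, and 65 of the 73 genes were within 2-fold of it. The 60S genes had a median of 552 and the 40S genes 771 CPM per kb. Rpl41 was highest, at 8484 CPM per kb of a coding sequence of 75 bp, a length at which the untranslated parts make up most of the mRNA. Rps14, a platform protein, followed at 1490, Rpl28 at 1271 and Rpl31 at 1203 CPM per kb. The lowest were Rpl24 at 3.50, Rps10 at 11.1, Rpl13a at 28.2 and Rpl23a at 137 CPM per kb. These 4 genes share 47.0%, 28.7%, 35.4% and 62.3% of their exon bases with another annotated gene, and reads that overlap several genes were not counted. Rpl35 shares 66.2% and was at 379 CPM per kb, and Rpl31 shares 25.3%, so a large overlap did not always go with a low level. The part of the overlap in the low values was not tested.

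The run of pyrimidines at the start of ribosomal protein mRNAs was looked for in RefSeq transcript starts of build GRCm38.p6, in a window of 30 bases with 15 on each side of the annotated start. The condition was at least 6 C or T in a row, on the gene's strand, overlapping the 15 bases after the start. Runs that lie wholly after the annotated start were therefore counted too, so a run in the window need not begin the mRNA. Starts were matched for 63 of the 88 genes. The run was in 27 of 54 core genes (50%), in 2 of 9 of the other genes (22.2%) and in 5451 of 27025 genes of the whole table (20.2%). With runs that end at the last base before the annotated start also counted, the shares were 51.9%, 33.3% and 23.5%. The absence of a run says only that this window holds none that meets the condition. The sequences of 5 core genes that hold it are shown beside those of paralogues that do not meet the condition, since Rpl3l and Rpl36al are among the 4 genes of smallest p. Capitals mark the run. The windows are Rps6 at chr4:86857353-86857382 (minus strand), Rpl38 at chr11:114668565-114668594 (plus), Rps27 at chr3:90213634-90213663 (minus), Rpl13a at chr7:45128731-45128760 (minus), Rpl39 at chrX:37085208-37085237 (minus), Rpl3l at chr17:24727811-24727840 (plus), Rpl36al at chr12:69184053-69184082 (minus) and Rpl39l at chr16:10170213-10170242 (plus).
Rps6: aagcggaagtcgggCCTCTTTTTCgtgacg
Rpl38: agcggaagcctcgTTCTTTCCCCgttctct
Rps27: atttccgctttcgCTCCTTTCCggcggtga
Rpl13a: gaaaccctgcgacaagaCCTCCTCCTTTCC
Rpl39: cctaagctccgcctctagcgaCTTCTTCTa
Rpl3l: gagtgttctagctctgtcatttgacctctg
Rpl36al: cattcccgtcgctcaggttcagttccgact
Rpl39l: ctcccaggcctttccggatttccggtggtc
The run is 10 bases long in Rps6 and Rpl38, 9 in Rps27, 13 in Rpl13a and 8 in Rpl39. In Rpl13a and Rpl39 it lies wholly after the annotated start. Rpl39l has a run of 7 (cctttcc) that ends at the base before its annotated start, so a start annotated 1 base earlier would place it among the genes with the run.

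Lists of genes that make or use ribosomes had medians below 0 over the 6 libraries, where the median of all tested genes was -0.01. EdgeR called 4.34% of all tested genes, so single calls in these lists are not read as results about the lists. Of 34 translation initiation factors 1 was called, lower: Eif3j1, a subunit of the factor that loads the 40S subunit, at 81.4 ± 7.79 CPM in Col1a1+/- and 127 ± 16.7 CPM in WT (SD, n = 3, log2 fold change -0.64 ± 0.13, SE, edgeR adjusted p = 0.0341). The initiation factors had a median of -0.14, with 7 of 34 above 0, and -0.13 without WT replicate 1. Of 40 ribosome biogenesis genes 1 was called, lower: Rrp12, which takes part in the export of ribosomal subunits, at 18.1 ± 1.78 against 29.0 ± 4.16 CPM (-0.68 ± 0.14, SE, adjusted p = 0.0369). The biogenesis genes had a median of -0.03, close to that of all genes. Without WT replicate 1 it was 0.04, beside 0.02 for the core ribosomal protein genes and 0.04 for all genes. Neither Eif3j1 nor Rrp12 was called without Col1a1+/- replicate 1 or 3 or without WT replicate 2 or 3 (adjusted p from 0.0786 to 0.154). These lists were set beside the ribosomal protein genes by their medians, and the difference was not tested.

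Of 11 elongation and termination factors edgeR called 0, with 2 at an unadjusted p under 0.05, and DESeq2 and limma-voom called 1 each. Over all tested genes 22.8% had such a p by edgeR, and DESeq2 called 12.1% and limma-voom 5.17%. The elongation factor Eef1a1 was at 3092 ± 317 CPM in Col1a1+/- and 2414 ± 158 in WT (SD, n = 3, log2 fold change 0.36, edgeR adjusted p = 0.266). Its paralogue Eef1a2, which replaces it in muscle and neurons, was at 249 ± 111 against 760 ± 235 CPM (-1.61, adjusted p = 0.0507). This pair lay in the same directions as Rpl3 and Rpl3l.

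The remaining lists held few differences. Of 17 other mRNAs known to carry a TOP sequence, edgeR called 0 with 1 at an unadjusted p under 0.05, DESeq2 and limma-voom called 0, and the median was -0.05. Of 6 tested chaperones of ribosomal proteins, 0 were called by any of the 3 tools or at an unadjusted p under 0.05. Of 16 genes of mTORC1, its targets and Myc, edgeR called 0 with 3 at an unadjusted p under 0.05, DESeq2 called 3 and limma-voom 0. Over all tested genes 22.8% had such a p by edgeR and DESeq2 called 12.1%, so these numbers are not read as a result about the list. The median of the 16 genes was -0.14, with 4 above 0. Of the genes below 0, those of smallest p were Eif4ebp2 and Deptor. Eif4ebp2, a repressor of initiation that mTORC1 inactivates, was at 155 ± 3.16 against 200 ± 11.5 CPM (SD, n = 3, log2 fold change -0.37, edgeR adjusted p = 0.0704). Deptor, an inhibitor of mTOR, was at 34.0 ± 2.32 against 54.5 ± 16.0 CPM (-0.68, adjusted p = 0.0757). Of the genes above 0, those of smallest p were Eif4ebp3, of the same family as Eif4ebp2 (0.76, adjusted p = 0.33), and Max (0.15, adjusted p = 0.4).

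Mitochondrial ribosomal proteins lay on the other side of 0 from the cytosolic ones in the TMM scaling. They build the separate ribosome that translates the proteins encoded by mitochondrial DNA. Of 77 tested genes 2 were above 0, the median log2 fold change was -0.34, and 28 had an unadjusted p under 0.05 by edgeR. Over all tested genes 22.8% had such a p, and DESeq2 called 12.1%, limma-voom 5.17% and edgeR 4.34%. The number of calls in the list that follows is therefore not read as a result about it. Among the 77 genes DESeq2 called 11, limma-voom called 0, and edgeR called 1, Mrpl3, lower, at 27.6 ± 2.56 against 39.5 ± 4.13 CPM (SD, n = 3, log2 fold change -0.52 ± 0.12, SE, edgeR adjusted p = 0.0497). Mrpl3 was called without WT replicate 1 but not without any of the other 5 libraries (adjusted p from 0.0505 to 0.181), nor with library totals (0.0653) or by limma-voom (0.0511). The mitochondrial list's share of counts was 0.214%, 0.235% and 0.204% in Col1a1+/- and 0.236%, 0.272% and 0.283% in WT, without overlap. Without WT replicate 1 the median of the mitochondrial list was -0.44 and that of the core cytosolic genes was 0.02. Both were lower than with all 6 libraries. Skeletal muscle is rich in mitochondria, and its markers were lower in each Col1a1+/- library. The part of muscle RNA in these values was not tested.

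**Figure D5:**
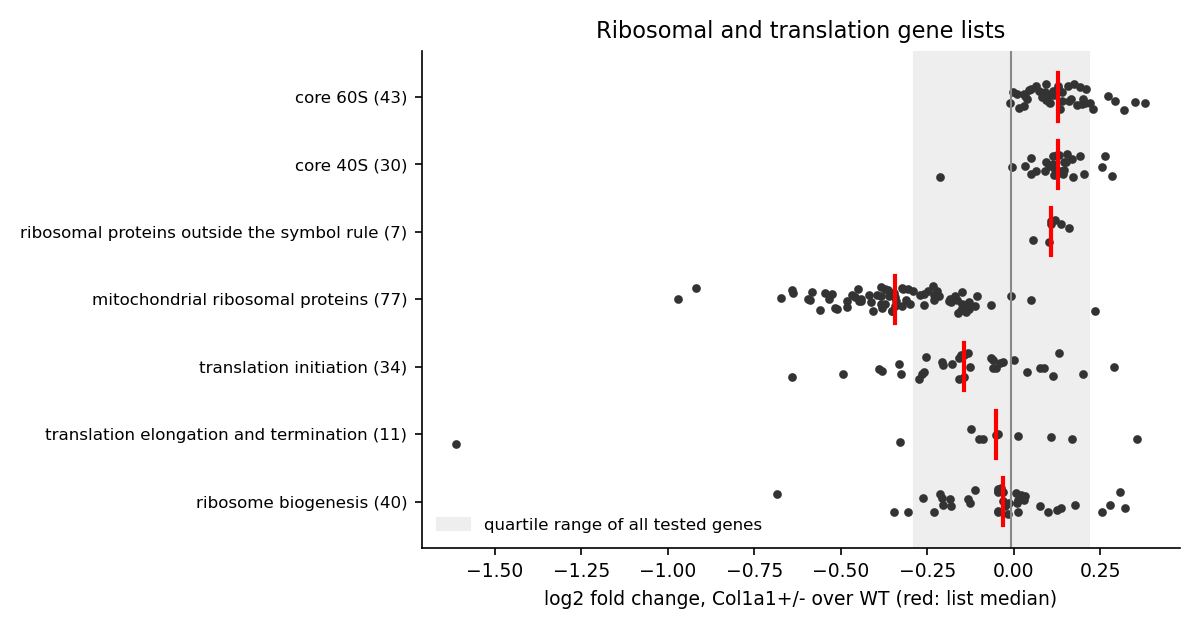
Log2 fold change, Col1a1+/- over WT in the TMM scaling (x axis), of each tested gene (points, spread vertically for legibility) in lists of ribosomal and translation genes (rows, number of genes in brackets), with the list median in red and the range between the quartiles of all tested genes in grey. The core 60S and 40S genes sit in a narrow band around 0.13, and the mitochondrial ribosomal proteins around -0.34.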

How the data were processed

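Raw counts of reads per gene were deposited for each of the 6 tibia libraries and carry no scaling. The submitters' processing notes name Trimmomatic 0.39, HISAT2 2.2.1 and SAMtools 1.20. Reads were counted by featureCounts 2.0.3 over Ensembl release 107 exons of GRCm39, per the file headers, without strand, with each mate of a pair counted alone and with multi-mapped reads, and reads over more than 1 gene, left out. Ribosomal protein genes have many processed pseudogenes, so part of their reads is not in these counts, and levels of genes that overlap others are understated.

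Symbols were matched by identifier for 52073 of 56748 genes (91.8%). Genes were filtered with filterByExpr and scaled by TMM (factors 0.892 to 1.1). Genotypes were compared over all 18514 tested genes with edgeR 4.0.16 in R 4.3.3 (robust quasi-likelihood F test, two-sided, Benjamini-Hochberg adjusted p under 0.05). SEs were derived from the log2 fold change and its F statistic, and intervals are 95%. Log2 CPM within genotypes used a prior count of 2. Ratios were tested by exact permutation in Python 3.11.15, and Spearman's rho was computed with SciPy 1.17.1. The test script was checked on simulated data. Coding lengths came from GENCODE principal transcripts of an earlier build. Alternatives were DESeq2 1.42.0 (also its size factors in edgeR), limma-voom (limma 3.58.1), library totals, no filter, a replicate block, a muscle covariate, scaling on osteocyte genes and leaving out each library.

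Members and lists were chosen with earlier results of these data known. The genes named were drawn from Rpl3l, Rpl3, Rpl5, Rpl11, Rpl38, Rps6, Rps19 and Rps27a, the 4 genes of smallest p in each direction, the 3 core genes of highest and of lowest level per kb of exon in each subunit, all paralogues with their partners, and 2 genes of smallest p from each list in each direction. Not all of these are given. From the initiation, biogenesis and mitochondrial ribosomal lists only genes that were lower in Col1a1+/- are given. Core genes named for their level per coding length, for groups that did not overlap, or for their share of core counts (among them Rpl41) were chosen after their values were seen.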

Additional observations from a re-analysis of the deposited data

How the results depend on the processing

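Of the ribosomal protein genes, edgeR called 0 higher and 0 lower with DESeq2 size factors, with no filter and with the replicate block. Rpl3l was called lower, 1 gene in all, with library totals (-1.42, adjusted p = 0.0315), limma-voom (-1.56, adjusted p = 0.0365) and DESeq2 (-1.51, adjusted p = 4.72e-05), which also called 1 gene higher, Rpl3 (0.38). With library totals Rps27l was at 0.0156, and the member median was 0.22, beside 0.07 over all genes. In that scaling 23 members had an unadjusted p under 0.05 by edgeR, against 4 in the main fit. It called 1327 genes in all, against 803. With the muscle covariate the member median was 0.47, and Rpl3l (0.21), Rpl10-ps3 (1.36), Rps2 (0.22) and Rps27l (0.61) changed sign. The cause was not tested: that fit called 0 genes of all, and the muscle share separates the genotypes.

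Scaling on osteocyte genes moved the median of all genes to -0.64 and that of the members to -0.47, which is 0.17 above it, against 0.13 above it in the TMM scaling. In it 2 genes were called lower, Rpl3l (-2.07) and Rpl10-ps3 (-2.36), and the sign turned for Rpl3 (-0.25), Rpl5 (-0.50), Rpl11 (-0.51), Rpl38 (-0.34), Rps6 (-0.44), Rps19 (-0.41), Rps27a (-0.29), Rpl13a (-0.26), Rpl39l (-0.0360), Rps12-ps3 (-0.32), Rpl22l1 (-0.38) and Rpl41 (-0.25). With muscle counts left out of the total, the share difference was 0.27 percentage points.

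Leaving out each library in turn gave 0 to 1 genes called lower, 0 higher, Rpl3l from -1.89 to -1.24, a member median from 0.03 to 0.20, a share difference from 0.29 to 0.39 percentage points and a difference of the 60S to 40S ratio from 0.0184 to 0.0357. Rps27l ranged from -0.22 to 0.0160 (0.0081 without Col1a1+/- replicate 3), Rpl11 from -0.0204 to 0.19 and Rpl10-ps3 from -2.12 to 0.10. The number of genes called in all ranged from 0, without Col1a1+/- replicate 1 or WT replicate 3, to 1766 without WT replicate 1.

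Libraries of the same number correlated at 0.11, 0.04 and -0.12 in their deviations, and those of different number at -0.20 to 0.20. The values showed no pairing by number, but so few libraries cannot exclude one. With the replicate block the member median was 0.14, Rpl3l was at -1.54 (adjusted p = 0.0913), Eif3j1, Rrp12 and Mrpl3 had adjusted p of 0.067, 0.065 and 0.0801, and 126 genes were called in all, against 803.

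With 3 libraries a group, the 95% interval of a core gene was 0.66 wide on the log2 scale (median), which limits what can be said of a single gene.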
